A study of Mus musculus with 18 samples.

Results

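Neutrophils labelled CIS-/- were compared between 4 h of culture with GM-CSF and the unstimulated state, 3 libraries a side, across all expressed genes. The members were assigned by their labels: the comparison takes the 3 libraries titled CIS-/- GM-CSF 4h and the 3 titled CIS-/- unstimulated, 6 of the 18 libraries of the series. Both groups came from neutrophils sorted by flow cytometry from the bone marrow of 10-week-old mice. The unstimulated cells were lysed right after the sort, and the others were kept for 4 h in RPMI medium with fetal calf serum, antibiotics and 100 ng/mL GM-CSF before lysis. WT neutrophils at the same times, 3 libraries a group, served as the comparison genotype, and all 6 groups of the series shared 1 model fit. Nothing was cultured without GM-CSF, so culture and GM-CSF cannot be told apart in any change below. Whether replicates came from separate mice is not in the labels; the p-values therefore reflect the spread among these libraries, which may be technical. In these bulk libraries fewer cells of a type and less RNA per cell cannot be told apart.

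GM-CSF is a growth factor that prolongs the life of neutrophils and primes them for adhesion, killing and cytokine release. Its receptor pairs a ligand-binding alpha chain with a common beta chain that carries the kinase JAK2, and activated JAK2 phosphorylates STAT5, which enters the nucleus and switches on target genes. Cish, the gene of the inhibitor CIS, is one of these targets: CIS is a member of the SOCS family, whose proteins bind receptors or kinases and dampen the signal that induced them. Neutrophils leave the marrow loaded with granule proteins made earlier in their development, and much of what they express later is set by cytokines.

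Cish is the gene that the labels name as knocked out, so its level in each library is given first. In counts per 1e+06 reads (CPM), on library sizes scaled with TMM factors, the unstimulated libraries labelled CIS-/- held 18.3, 19.98 and 17.9 CPM and those cultured for 4 h held 243, 240.4 and 237 CPM. The WT libraries held 6.48, 6.52 and 6.5 CPM unstimulated and 1155, 1138 and 1153 CPM at 4 h. At 4 h the libraries labelled CIS-/- therefore lay below WT, but unstimulated they lay above WT. Counts per gene do not show which part of Cish the reads cover, so they cannot settle the genotype label. Within the libraries labelled CIS-/- Cish rose with a log2 fold change of 3.68 ± 0.05 (± SE, edgeR adjusted p = 1.49e-58). Every change below is measured from these unstimulated libraries, so counts were also made with the unstimulated WT libraries as the baseline, a comparison chosen after the data were seen.

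Total counts of the 6 libraries ran from 12612313 to 19164043, and 15304 to 16258 genes had a count. The most abundant 10 genes held 13.7 to 14.1% of the counts unstimulated and 9.58 to 9.99% at 4 h. Replicates differed by more than sampling noise, with a chi-square per degree of freedom of 1.292 to 2.54 over the 6 pairs. The first principal component of the 4 unstimulated and 4 h groups held 86.39% of the variance and separated the times, and the second, with 3.39%, separated the genotypes. The labelled cell type was checked on its markers: all 14 listed neutrophil markers were above 1 CPM in both groups, and their summed level ran from 127600 to 131800 CPM unstimulated and from 76850 to 82310 CPM at 4 h.

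After 4 h most expressed genes had changed. Of 11569 genes that passed the low-count filter, 4381 rose (37.9%) and 4526 fell (39.1%) at an edgeR quasi-likelihood p, adjusted by Benjamini-Hochberg, under 0.05; such genes are said here to have risen or fallen, and 77% of all genes did one or the other. At least 2-fold changes were found in 36.3% of genes and split evenly, with 2095 genes higher (18.1%) and 2107 lower (18.2%). Beyond that the balance shifted to rises: 1064 genes rose and 621 fell at least 4-fold, and 347 rose and 44 fell at least 16-fold. In 4440 genes (38.4%) all libraries at 4 h lay above all unstimulated libraries, and in 4601 (39.8%) all lay below. The calls included 97 genes with no count in any unstimulated library that rose, and 8 with no count at 4 h that fell. The fitted folds of such genes depend on the prior count, and these genes can enter the 4-fold and 16-fold counts. How much they add to the excess of large rises was not computed. The median log2 fold change of all genes was -0.03. Every gene list below is read against this median and the shares of all genes that rose or fell. Scaling by library size alone instead of TMM moved that median to -0.17 and the share of rises among the calls from 49.2% to 42%.

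**Figure D1:**
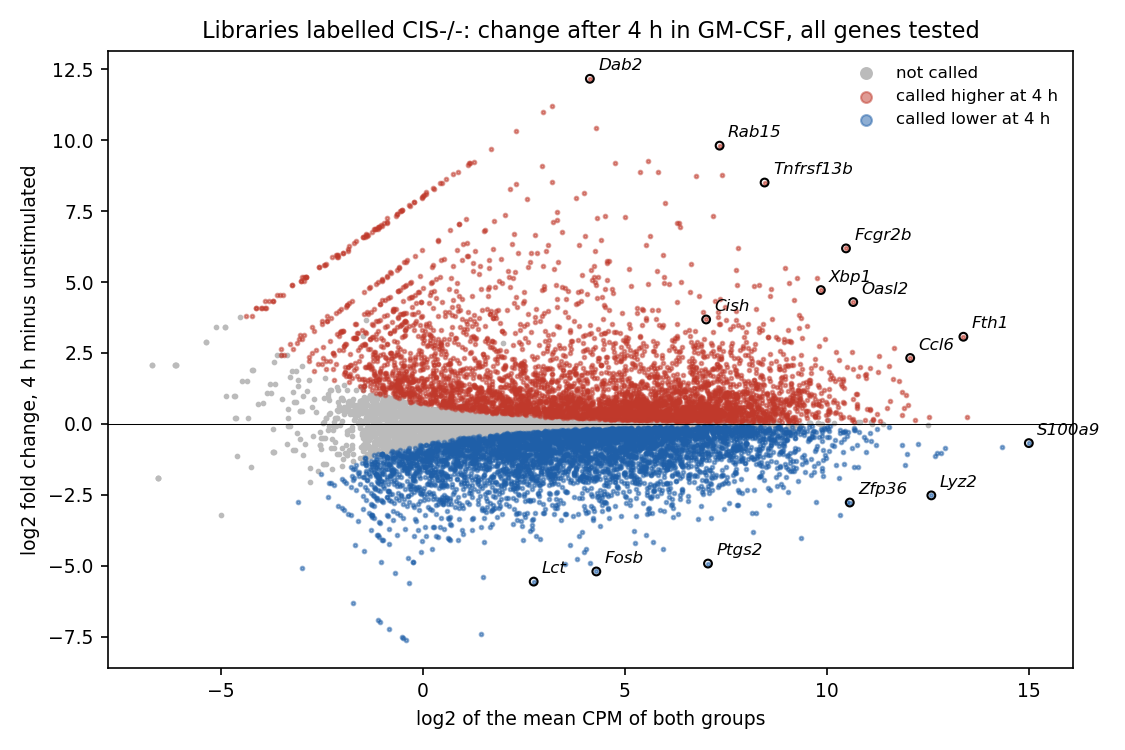
Change after 4 h of GM-CSF in the libraries labelled CIS-/-: each point is 1 of 11569 genes, with the log2 mean CPM of both groups on the x axis and the log2 fold change, 4 h minus unstimulated, on the y axis. Red points rose, blue points fell and grey points did not pass the test; rises reach further from 0 than falls. Genes with no unstimulated count, such as Dab2, lie at fitted values that depend on the prior count.

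The 12 largest rises started from no count or a low level before culture. Dab2 (chromosome 15, 6299788 to 6440712, plus strand), an adaptor of clathrin-mediated endocytosis, had no count unstimulated and stood at 32.3, 35.4 and 37.9 CPM at 4 h. With the unstimulated group set to a floor of 3 counts in all, that was at least 560-fold higher. Car4, a membrane-anchored carbonic anhydrase, also had no count unstimulated and reached 18.9, 18.3 and 17.9 CPM, at least 291-fold higher. Both genes were thus detected in all 3 libraries at 4 h and in none before. Lrp12, a transmembrane receptor of the lipoprotein receptor-related family, had 1 count unstimulated and 36.7, 40.6 and 40.5 CPM at 4 h, a ratio of 1882 with a 95% counting interval of 337.3 to 74390. C3ar1, the receptor of complement fragment C3a, went from 1 count to 15, 16.1 and 15.6 CPM, a ratio of 746 with an interval of 133.4 to 29510. Cdh1, which codes for E-cadherin, went from 2 counts to 19.8, 17.9 and 17.7 CPM, a ratio of 438.2 with an interval of 120.9 to 3625. These intervals cover counting error only, and they are wide because the unstimulated counts were so few.

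Other genes of this group started from a low but measured level. Rab15, a small GTPase of endosome recycling, was counted at 0.37, 0.19 and 0.52 CPM unstimulated and 328, 328 and 321 CPM at 4 h (log2 fold change 9.81 ± 0.09, edgeR adjusted p = 1.88e-64). Tnfrsf13b, which codes for TACI, a receptor of the B-cell survival factors BAFF and APRIL, was counted at 1.52, 2.28 and 2 CPM unstimulated and 691, 714 and 707 CPM at 4 h (log2 fold change 8.51 ± 0.06, edgeR adjusted p = 2.18e-69). In both genes the groups were far apart and the libraries within a group close together. Lipg, a lipase secreted by endothelial cells, was counted at 0.85, 0.38 and 1.1 CPM unstimulated and 342, 343 and 339 CPM at 4 h. F10, coagulation factor X, was counted at 0.61, 0.57 and 0.32 CPM unstimulated and 219, 218 and 209 CPM at 4 h. Hbegf, a ligand of the epidermal growth factor receptor, was counted at 0.37, 0.19 and 0.13 CPM unstimulated and 114, 113 and 111 CPM at 4 h. The log2 fold changes of these were 8.77 ± 0.09, 8.72 ± 0.09 and 8.89 ± 0.12. Scimp, an adaptor that links MHC class II and Toll-like receptors to kinases, and Cmklr1, the receptor of chemerin, rose by 9.27 ± 0.14 and 9.21 ± 0.16 on the log2 scale, from under 0.2 CPM in every unstimulated library. These 12 genes were chosen among those whose groups do not overlap.

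The largest falls, chosen by the same rule, were led by Lct, Fosb and Ankrd9. Fosb, an AP-1 subunit, was counted at 38.2, 39.1 and 37.4 CPM unstimulated and 1.04, 0.98 and 1.11 CPM at 4 h (log2 fold change -5.20 ± 0.14, edgeR adjusted p = 6.49e-41). Ptgs2, which codes for cyclooxygenase-2, the inducible enzyme of prostaglandin synthesis, was counted at 261, 253 and 262 CPM unstimulated and 7.57, 8.93 and 8.93 CPM at 4 h (log2 fold change -4.92 ± 0.06, edgeR adjusted p = 2.35e-58). Lct, the gene of the intestinal enzyme lactase, was counted at 13.9, 13.1 and 12.3 CPM unstimulated and 0.52, 0.12 and 0.26 CPM at 4 h (log2 fold change -5.56 ± 0.23). All 3 thus lost most of their level. Nat8l, the enzyme that makes N-acetylaspartate, was counted at 100.04, 102 and 92.8 CPM unstimulated and 6, 5.76 and 4.51 CPM at 4 h. Vnn3, of the pantetheinase family, was counted at 76.2, 71.9 and 68.8 CPM unstimulated and 4.7, 3.97 and 3.06 CPM at 4 h. Their log2 fold changes were -4.17 ± 0.09 and -4.20 ± 0.09. Other large falls were those of Ankrd9 (-4.94 ± 0.17), the dystrophin-complex protein Sntb1 (-4.92 ± 0.15), Tex15 (-4.52 ± 0.13), the ubiquitin ligase Rnf125 (-4.41 ± 0.14), the integrin chain Itga8 (-4.10 ± 0.23) and Ear2, a ribonuclease of the eosinophil-associated family whose close copies could share its reads (-4.05 ± 0.18), all as log2 fold changes.

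**Figure D2:**
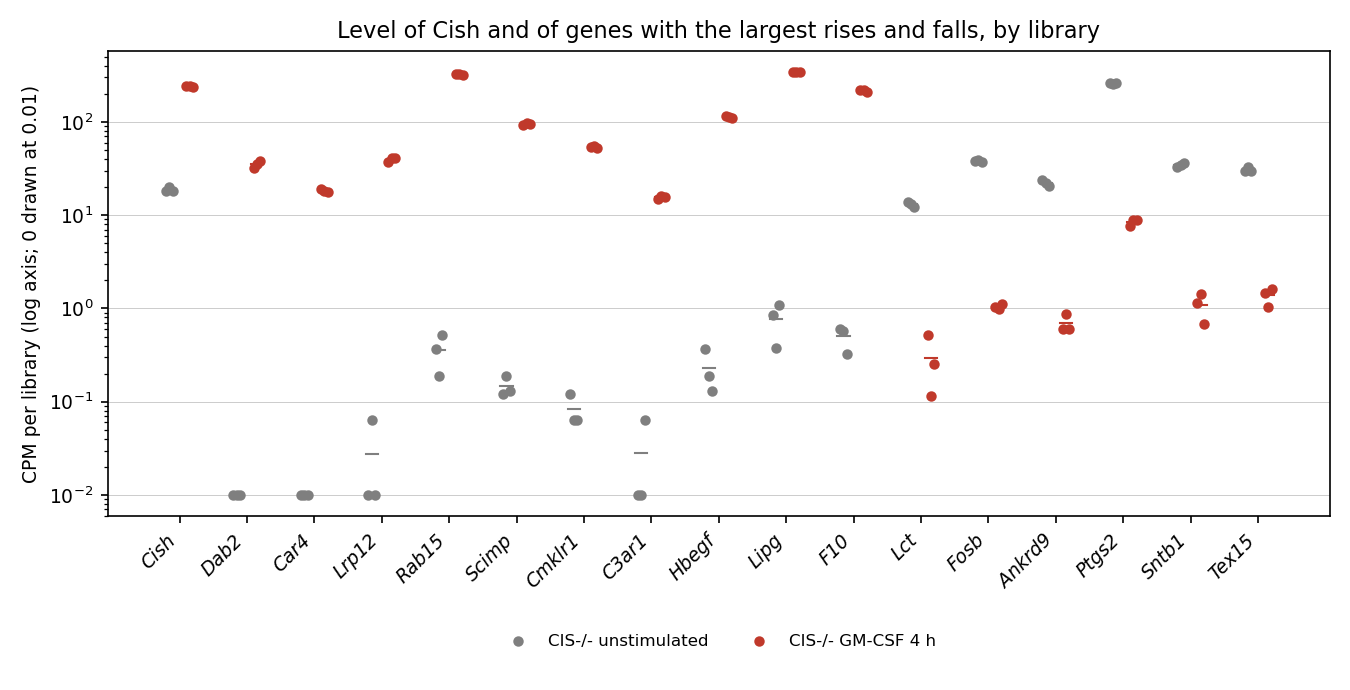
CPM of Cish and of genes with the largest rises and falls in each library labelled CIS-/- (log axis, a level of 0 drawn, and entered in the mean, at 0.01), with unstimulated libraries in grey, 4 h libraries in red and short bars for group means. All genes but Cish were chosen among those whose groups do not overlap; Fosb stands at 37.4 to 39.1 CPM unstimulated and 0.98 to 1.11 CPM at 4 h.

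Measured by share of the library, the largest gains were those of Fth1 and Ccl6 and the largest losses those of S100a9, S100a8 and Lyz2. Fth1, the ferritin heavy chain that stores iron, was counted at 2301, 2277 and 2251 CPM unstimulated and 19622, 19749 and 18065 CPM at 4 h (log2 fold change 3.07 ± 0.04, edgeR adjusted p = 8.20e-46). Its reads can be shared with processed pseudogene copies. Gains also came from the chemokine Ccl6 (1431 ± 7.68 CPM unstimulated and 7163 ± 151 CPM at 4 h, SD, n = 3), the inhibitory receptor Cd300lf (866 ± 7.9 CPM unstimulated and 5590.4 ± 32.2 CPM at 4 h), the granule proteoglycan serglycin, Srgn (1169 ± 23.5 CPM unstimulated and 4768 ± 89.5 CPM at 4 h), and the lysosomal protease cathepsin D, Ctsd (807 ± 15.8 CPM unstimulated and 4199 ± 129 CPM at 4 h). The inhibitory receptors Lilr4b and Cd33 rose by 1.53 ± 0.03 and 1.59 ± 0.03 on the log2 scale, and Lilr4b has a close copy that could share its reads. The largest losses were in the calcium-binding alarmins S100a9 and S100a8. S100a9 was counted at 41499, 40431 and 39629 CPM unstimulated and 26351, 25728 and 24044 CPM at 4 h and S100a8 at 26984, 26787 and 26268 CPM unstimulated and 14958, 16004 and 14486 CPM at 4 h. Both fell by under 2-fold (log2 fold changes -0.68 ± 0.06 and -0.82 ± 0.06), yet together they account for the largest shift in reads. Lysozyme, Lyz2, fell further, from 10995, 10418 and 10150.5 CPM unstimulated and 1875, 1872 and 1764 CPM at 4 h (log2 fold change -2.52 ± 0.04, edgeR adjusted p = 3.26e-26). Retnlg, Ltf, Mmp9, Ngp and Lcn2, which code for a resistin-like protein, lactoferrin, gelatinase B, neutrophilic granule protein and lipocalin-2, fell by -1.14, -1.01, -1.02, -0.84 and -1.46 as log2 fold changes.

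Genes of the receptor and its signalling chain changed in both directions. Of the receptor chains, Janus kinases and STATs (14 of 14 listed genes tested), 6 rose, 6 fell and 2 did not pass the test (median log2 fold change -0.03), shares near those of all genes. Jak2 was counted at 115, 111 and 112 CPM unstimulated and 1123, 1185 and 1187 CPM at 4 h (log2 fold change 3.37 ± 0.04, edgeR adjusted p = 6.62e-60). Csf2rb, the common beta chain, was counted at 637, 636 and 626 CPM unstimulated and 1890.4, 1882 and 1903 CPM at 4 h, and its mouse relative Csf2rb2, the beta chain of the interleukin-3 receptor, at 65, 64.5 and 61.2 CPM unstimulated and 423, 422 and 420.2 CPM at 4 h. The 2 beta chains are close in sequence, so reads could be split between them. Stat2, which carries type I interferon signals, rose by 1.81 ± 0.05 on the log2 scale, and Stat6 rose by 0.22. The members that fell were the alpha chain Csf2ra (-0.30), the kinase Jak3 (-0.81), Stat3 (-0.65), Stat4 (-2.48), and both forms of STAT5, Stat5a (-0.82) and Stat5b (-0.85), as log2 fold changes. Jak1 (0.03) and Tyk2 (-0.08) did not pass the test. Members outside the naming rule were added to this list after their values were seen. Among phosphatases and adaptors of cytokine receptors (18 of 18 tested), 9 rose, 8 fell and 1 did not pass the test (median log2 fold change 0.18). That median was 0.09 without unstimulated replicate 1, 0.10 without 4 h replicate 2 and 0.03 with library sizes alone. Ptpn1, a phosphatase that acts on Janus kinases, rose by 2.25 ± 0.03, the adaptor Gab2 by 2.43 ± 0.04 and the inositol phosphatase SHIP1, Inpp5d, by 1.08 ± 0.03, while the adaptor Shc1 fell with a log2 fold change of -1.07 ± 0.05.

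Some of the SOCS inhibitors rose. Of 8 listed and tested members, 4 rose, 1 fell and 3 did not pass the test (median log2 fold change 0.77). Over all genes 37.9% rose and 39.1% fell, so the part of this small list that rose was not far above that share. Beside Cish, Socs1, an inhibitor that blocks Janus kinases directly, was counted at 21.2, 21.8 and 21.2 CPM unstimulated and 295, 298 and 290.3 CPM at 4 h (log2 fold change 3.78 ± 0.05, edgeR adjusted p = 1.40e-56). Socs4 rose by 1.29 ± 0.06 on the log2 scale. Socs2, another known STAT5 target, had no count unstimulated and stood at 1.39, 1.09 and 1.28 CPM; the same floor makes this at least 19.6-fold higher. With the WT baseline 5 members rose and 0 fell. Of the genes known to follow STAT5 (21 of 23 tested), 12 rose, 8 fell and 1 did not pass the test (median log2 fold change 1.71), so both directions were represented. The part that fell was near the share of all genes. The checkpoint ligand PD-L1, Cd274, was counted at 20.1, 19.2 and 18.8 CPM unstimulated and 331, 335 and 348 CPM at 4 h. The survival gene Bcl2l1, which codes for BCL-XL, was counted at 44.2, 41.3 and 42.1 CPM unstimulated and 499, 499.9 and 456 CPM at 4 h. Il4ra, the interleukin-4 receptor alpha chain, was counted at 212, 205 and 199 CPM unstimulated and 1128, 1095 and 1099 CPM at 4 h. These 3 rose by 4.12 ± 0.04, 3.51 ± 0.04 and 2.43 ± 0.03 on the log2 scale.

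The start-site sequences of 7 of these genes are shown because they hold, or differ in, the letters that STAT dimers and interferon-response factors are known to favour. Each runs 5′ to 3′ on the gene's own strand from base -130 to base 19 of the RefSeq start (base 0), on build GRCm38.p6. Capitals mark TTCNNNGAA (STAT), GAAANNGAA (interferon response) and TGANTCA (AP-1), each searched on both strands; overlapping matches are merged. Cish is at chr9:107296529-107296678, plus strand, Socs1 at chr16:10785517-10785666, minus strand, Dab2 at chr15:6299659-6299808, plus strand, Irf1 at chr11:53769884-53770033, plus strand, Gbp2 at chr3:142620533-142620682, plus strand, Gbp7 at chr3:142530206-142530355, plus strand and Cd274 at chr19:29367308-29367457, plus strand.
Cish: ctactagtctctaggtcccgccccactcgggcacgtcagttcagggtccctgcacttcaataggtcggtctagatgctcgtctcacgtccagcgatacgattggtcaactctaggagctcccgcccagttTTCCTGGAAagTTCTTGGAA
Socs1: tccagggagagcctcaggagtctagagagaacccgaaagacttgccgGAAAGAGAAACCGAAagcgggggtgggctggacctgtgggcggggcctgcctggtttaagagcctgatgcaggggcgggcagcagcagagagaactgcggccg
Dab2: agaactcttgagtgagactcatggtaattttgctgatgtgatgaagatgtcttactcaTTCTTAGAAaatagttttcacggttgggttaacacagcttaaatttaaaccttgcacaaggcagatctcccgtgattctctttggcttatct
Irf1: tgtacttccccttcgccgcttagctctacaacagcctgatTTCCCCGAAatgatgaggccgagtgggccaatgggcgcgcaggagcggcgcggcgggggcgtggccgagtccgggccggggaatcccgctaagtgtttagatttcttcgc
Gbp2: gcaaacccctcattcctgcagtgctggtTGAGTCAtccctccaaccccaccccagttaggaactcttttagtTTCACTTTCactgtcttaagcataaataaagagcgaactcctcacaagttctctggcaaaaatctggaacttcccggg
Gbp7: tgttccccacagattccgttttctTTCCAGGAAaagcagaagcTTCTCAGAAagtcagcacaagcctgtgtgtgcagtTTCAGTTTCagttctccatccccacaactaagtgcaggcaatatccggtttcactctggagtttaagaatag
Cd274: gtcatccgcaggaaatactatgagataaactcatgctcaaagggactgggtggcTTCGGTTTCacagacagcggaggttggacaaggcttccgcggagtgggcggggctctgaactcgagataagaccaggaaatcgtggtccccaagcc
Cish holds a pair of STAT matches, at bases 0 to 8 and 11 to 19. Dab2 holds one at -72 to -64, and Gbp7 holds a pair at -106 to -98 and -87 to -79 beside an interferon-response match at -52 to -44. Socs1 holds 2 overlapping interferon-response matches, from -83 to -69, Gbp2 one at -58 to -50 beside an AP-1 match at -102 to -96, and Cd274 one at -76 to -68. Irf1, which fell, holds a STAT match at -90 to -82, so the letters occur in genes of either direction. In the full windows of 250 bases before to 50 after the start, TTCNNNGAA was found in 7.08% of the 8615 tested genes with a promoter in the table, in 12.7% of 236 that rose at least 16-fold, in 8.51% of 1481 that rose at least 2-fold, in 6.21% of 1547 that fell at least 2-fold and in 8.19% of 1869 that did not pass the test. By list, the same letters were found in 2 of 16 genes known to follow STAT5 and in 2 of 4 SOCS genes. They were also found in 5 of 9 immunity GTPases, 6 of 26 interferon-stimulated genes and 0 of 23 lysosome genes. The STAT letters were therefore not confined to the STAT5 list. GAAANNGAA was found in 7.61% of tested genes, in 16 of the 26 interferon-stimulated genes with a promoter (61.5%), in 8 of 9 immunity GTPases (88.9%) and in 10 of 34 cytosolic ribosomal protein genes (29.4%), a list that mostly fell. TGANTCA was found in 5.19% of tested genes and in 12.7% of those that rose at least 16-fold. It was also found in 8 of 26 interferon-stimulated genes, in 2 of 9 immunity GTPases and in 1 of 34 cytosolic ribosomal protein genes. Over all 27025 promoters of the table the shares were 8.47%, 8.57% and 7.93%. A match describes the letters and does not show binding.

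Interferon-stimulated genes rose as a body. Of 34 of 39 listed genes tested, 31 rose, 1 fell and 2 did not pass the test (median log2 fold change 1.79), against 37.9% rising and a median of -0.03 over all genes. Oasl2, an antiviral oligoadenylate synthetase-like protein, was counted at 158, 157 and 155 CPM unstimulated and 3033, 3060.4 and 3136 CPM at 4 h (log2 fold change 4.29 ± 0.04, edgeR adjusted p = 8.39e-68). Zbp1, a sensor of Z-form nucleic acids, was counted at 13.8, 14.8 and 14 CPM unstimulated and 286, 286 and 295 CPM at 4 h, and Parp14, an ADP-ribosyltransferase, at 56.1, 56.6 and 52.5 CPM unstimulated and 611, 646 and 649 CPM at 4 h. In each of these the lowest library at 4 h was far above the highest unstimulated one. Ifi35 rose by 3.30 ± 0.06 on the log2 scale. The interferon-inducible GTPases that attack intracellular pathogens (13 of 18 tested) did the same: 12 rose, 0 fell and 1 did not pass the test (median log2 fold change 3.29). Gbp2 was counted at 35.2, 31.8 and 31.8 CPM unstimulated and 1019, 1056 and 1036 CPM at 4 h, Gbp7 at 32.1, 32.3 and 33.5 CPM unstimulated and 717, 737 and 788 CPM at 4 h, and Gbp5 at 1.22, 1.01 and 1.29 CPM unstimulated and 157, 165 and 164 CPM at 4 h. Their log2 fold changes were 4.98 ± 0.04, 4.52 ± 0.05 and 7.10 ± 0.09, that of Ifi47 was 5.005 ± 0.07, and the family's close sequences leave the split of reads among members uncertain. Of the interferon regulatory factors (6 of 9 tested), 5 rose, 1 fell and 0 did not pass the test (median log2 fold change 0.76). That median was 0.37 to 0.46 when any library but unstimulated replicate 2 was left out, and 2 members fell without unstimulated replicate 1, unstimulated replicate 3 or 4 h replicate 3. The count filter was rerun in these fits, so a member not tested above could enter. Irf5, Irf7 and Irf9 rose by 2.86 ± 0.04, 1.28 ± 0.04 and 1.12 ± 0.04, and Irf1 was the member that fell, from 259.8, 253 and 254 CPM unstimulated and 181, 177 and 175 CPM at 4 h. Among interferon receptors and ligands (6 of 10 tested), 5 rose, 1 fell and 0 did not pass the test (median log2 fold change 0.62). The lambda receptor chain Ifnlr1 fell (-1.42 ± 0.04) while its partner Il10rb rose (1.82 ± 0.04), and Ifngr1 and Ifnar1 rose by 0.73 ± 0.04 and 0.69 ± 0.04, as log2 fold changes. With the WT baseline 29 interferon-stimulated genes and 12 GTPases rose.

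Immediate-early genes, many of them fast transcription factors that follow cell handling and receptor activation, changed in both directions after 4 h. They are read against 37.9% of all genes rising and 39.1% falling, and 18.1% and 18.2% at least 2-fold. Some stood high in the unstimulated libraries. Of 14 of 15 AP-1 factors tested, 6 rose, 8 fell and 0 did not pass the test (median log2 fold change -0.59). At least 2-fold, 2 of them rose and 7 fell. Fos was counted at 1245, 1251 and 1242 CPM unstimulated and 74.2, 78.2 and 77.3 CPM at 4 h (log2 fold change -4.02 ± 0.04, edgeR adjusted p = 3.07e-65), Junb at 2355, 2353 and 2289 CPM unstimulated and 261, 250.3 and 254 CPM at 4 h and Fosl2 at 1348, 1337 and 1357 CPM unstimulated and 641, 632 and 638 CPM at 4 h. These fell in every library. Of the Egr, Nr4a, Ier and Klf genes (19 of 20 tested), 9 rose, 9 fell and 1 did not pass the test (median log2 fold change -0.03). At least 2-fold, 2 of them rose and 8 fell. Zfp36, which destabilises cytokine mRNA, was counted at 2642, 2647 and 2683 CPM unstimulated and 396, 396 and 377 CPM at 4 h. Nr4a1 was counted at 89.1, 86.4 and 84.8 CPM unstimulated and 5.13, 5.93 and 6.13 CPM at 4 h and Ier2 at 623, 616 and 605 CPM unstimulated and 129, 128 and 128 CPM at 4 h. Ier3 went the other way, from 158, 156 and 154 CPM unstimulated and 500.3, 497 and 484 CPM at 4 h. Of the dual-specificity phosphatases, which switch off MAP kinases (10 of 12 tested), 3 rose, 3 fell and 4 did not pass the test (median log2 fold change 0.37). That median was -0.30 with the compared groups fitted alone, 0.04 with the strict count filter, 0.19 without 4 h replicate 1 and 0.69 without 4 h replicate 2. The count filter differed or was rerun in these fits, so members could enter or leave. These shifts need not be changes in the same genes, and the list is given no direction here. Dusp1 and Dusp6 fell by -2.03 and -0.67 as log2 fold changes, and Dusp16 and Dusp5 rose by 2.52 and 0.93. These groups depended on the baseline. Unstimulated libraries labelled CIS-/- already stood above WT by a median log2 difference of 0.48 for AP-1 factors, 0.44 for Egr, Nr4a, Ier and Klf genes and 0.53 for dual-specificity phosphatases. With the WT baseline 8 AP-1 factors rose and 6 fell, and the median turned from -0.59 to 0.56; the Egr, Nr4a, Ier and Klf median turned from -0.03 to 0.37, and to 0.12 with the strict count filter.

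Inflammatory mediators moved in both directions. Of 10 of 20 chemokines tested, 7 rose, 2 fell and 1 did not pass the test (median log2 fold change 1.93). Ccl9 was counted at 6.51, 7.48 and 7.03 CPM unstimulated and 55.7, 62.3 and 58.4 CPM at 4 h, the neutrophil attractant Cxcl3 at 2.74, 3.23 and 2.64 CPM unstimulated and 44.6, 48.3 and 45.2 CPM at 4 h, and the macrophage inflammatory protein Ccl4 at 34.9, 35.3 and 34.2 CPM unstimulated and 100.6, 99.5 and 91.1 CPM at 4 h. Cxcl3 and Ccl4 rose from an unstimulated level above that of WT, whose means were 0.536 and 7.91 CPM. Of the cytokines and growth factors (19 of 28 tested), 11 rose, 6 fell and 2 did not pass the test (median log2 fold change 0.66). Tgfb1 was counted at 92.6, 92.6 and 89.5 CPM unstimulated and 779, 785 and 751 CPM at 4 h. Il1b was counted at 1486, 1494 and 1483 CPM unstimulated and 221, 223 and 214 CPM at 4 h (log2 fold change -2.76 ± 0.04, edgeR adjusted p = 2.89e-57), and Osm, which codes for oncostatin M, at 651, 656 and 628 CPM unstimulated and 132, 129 and 129 CPM at 4 h. Il1b and Osm thus fell while Tgfb1 rose. Of the NF-kB subunits, inhibitors and response genes (25 of 27 tested), 14 rose, 6 fell and 5 did not pass the test (median log2 fold change 0.19). With library sizes alone 11 of them rose and 9 fell (median 0.04). Nfkb1, which codes for p105 and p50, rose by 2.28 ± 0.03, the antioxidant enzyme Sod2 rose by 2.43 ± 0.06, and the atypical inhibitor Nfkbiz fell with a log2 fold change of -1.93 ± 0.04. Of the inflammasome and interleukin-1 receptor genes (15 of 15 tested), 11 rose, 1 fell and 3 did not pass the test (median log2 fold change 1.17). The inflammasome adaptor Pycard, also known as ASC, was counted at 14.6, 15.6 and 18.7 CPM unstimulated and 131, 128 and 124 CPM at 4 h, pyrin, Mefv, at 43.9, 44.3 and 44.5 CPM unstimulated and 269, 278 and 284 CPM at 4 h, and the receptor accessory chain Il1rap at 50.4, 48.9 and 49.1 CPM unstimulated and 343, 364 and 352 CPM at 4 h. Il18bp, a decoy for interleukin-18, rose by 1.84 ± 0.05.

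Most antigen presentation genes rose. Of 23 of 23 MHC class I presentation genes tested, 19 rose, 1 fell and 3 did not pass the test (median log2 fold change 0.68). Nlrc5, the transactivator of MHC class I genes, was counted at 13.9, 14.8 and 14 CPM unstimulated and 415, 411 and 446 CPM at 4 h (log2 fold change 4.89 ± 0.05, edgeR adjusted p = 1.20e-60). The peptide editors Tapbpl and Tapbp and the immunoproteasome subunit Psmb10 rose by 2.38 ± 0.08, 1.05 ± 0.03 and 2.33 ± 0.08 on the log2 scale. Of the MHC class II and costimulation genes (14 of 16 tested), 12 rose, 0 fell and 2 did not pass the test (median log2 fold change 2.24). Cathepsin S, Ctss, which trims the invariant chain, was counted at 14.9, 15.5 and 14.4 CPM unstimulated and 314, 323 and 308 CPM at 4 h, the costimulator Cd80 at 19.8, 20.4 and 18.1 CPM unstimulated and 112, 119 and 122 CPM at 4 h and cathepsin L, Ctsl, at 47.7, 50.4 and 53 CPM unstimulated and 189.7, 187 and 188 CPM at 4 h. With Cd274 these 4 had the smallest adjusted p of the list.

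Lists of receptors for antibodies, microbes and attractants are set beside the 37.9% of all genes that rose and the 39.1% that fell. The Fc receptor list (7 of 10 tested) also holds the paired receptors Pira2 and Pirb. Of its tested members, 7 rose, 0 fell and 0 did not pass the test (median log2 fold change 1.02). Fcgr2b, the inhibitory receptor of IgG, was counted at 38.8, 37.9 and 39.5 CPM unstimulated and 2775, 2798 and 2878 CPM at 4 h (log2 fold change 6.19 ± 0.04, edgeR adjusted p = 7.16e-73), the activating Fcgr3 at 726, 715 and 718 CPM unstimulated and 2892, 3008 and 2861 CPM at 4 h, and the paired receptors Pira2 and Pirb, close copies that can share reads, rose by 1.02 ± 0.06 and 0.54 ± 0.03. Fcgr2b was thus far higher in all 3 libraries at 4 h. Of the C-type lectin receptors (11 of 15 tested), 7 rose, 3 fell and 1 did not pass the test (median log2 fold change 0.56). Dectin-2, Clec4n, was counted at 8.09, 7.1 and 7.61 CPM unstimulated and 191, 199.9 and 177 CPM at 4 h and dectin-1, Clec7a, at 519, 506 and 513 CPM unstimulated and 1629.7, 1736 and 1671 CPM at 4 h. Mincle, Clec4e, and the inhibitory Clec4a2 fell (-2.33 ± 0.04 and -1.96 ± 0.05), so fungal receptors did not move as one. Of the Toll-like receptors and adaptors (21 of 22 tested), 12 rose, 9 fell and 0 did not pass the test (median log2 fold change 0.46). Tlr1, which senses lipopeptides, was counted at 2.8, 2.22 and 2.26 CPM unstimulated and 43.8, 43.3 and 41.3 CPM at 4 h, and the RNA sensor Tlr8 at 85.8, 84 and 85 CPM unstimulated and 7.65, 9.16 and 11.4 CPM at 4 h. The signalling proteins Irak2 and Traf6 rose by 2.22 ± 0.04 and 2.55 ± 0.05.

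The other receptor lists are read against the same shares of all genes. The chemokine and complement receptor list (20 of 24 tested) also holds Ptafr and P2ry2. Of its tested members, 13 rose, 5 fell and 2 did not pass the test (median log2 fold change 0.75). Ptafr, the receptor of platelet-activating factor, was counted at 228, 225 and 213 CPM unstimulated and 1774, 1764 and 1751 CPM at 4 h (log2 fold change 2.99 ± 0.03, edgeR adjusted p = 1.06e-60). The nucleotide receptor P2ry2, the second C5a receptor C5ar2 and the chemokine receptor Ccr1 rose by 2.74 ± 0.05, 1.41 ± 0.04 and 0.97 ± 0.03. Of the integrins and adhesion molecules (22 of 22 tested), 15 rose, 6 fell and 1 did not pass the test (median log2 fold change 0.58). Pecam1, which neutrophils use to cross endothelium, was counted at 9.68, 9.2 and 10.7 CPM unstimulated and 416, 420.03 and 421 CPM at 4 h, the beta-1 integrin Itgb1 at 25.4, 24.5 and 27.3 CPM unstimulated and 297, 293 and 299 CPM at 4 h, and the anti-phagocytic Cd47 at 193, 199 and 195 CPM unstimulated and 828, 814 and 864 CPM at 4 h. All 3 groups of values were higher in every library at 4 h. Cd24a rose by 1.84 ± 0.03. Of the cytokine receptors (20 of 28 tested), 14 rose, 4 fell and 2 did not pass the test (median log2 fold change 1.18). Il10ra, the interleukin-10 receptor alpha chain, was counted at 61.2, 61.5 and 63 CPM unstimulated and 589, 579 and 581 CPM at 4 h, and the tumour necrosis factor receptor Tnfrsf1b at 207, 209 and 207 CPM unstimulated and 797, 798 and 747 CPM at 4 h.

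**Figure D3:**
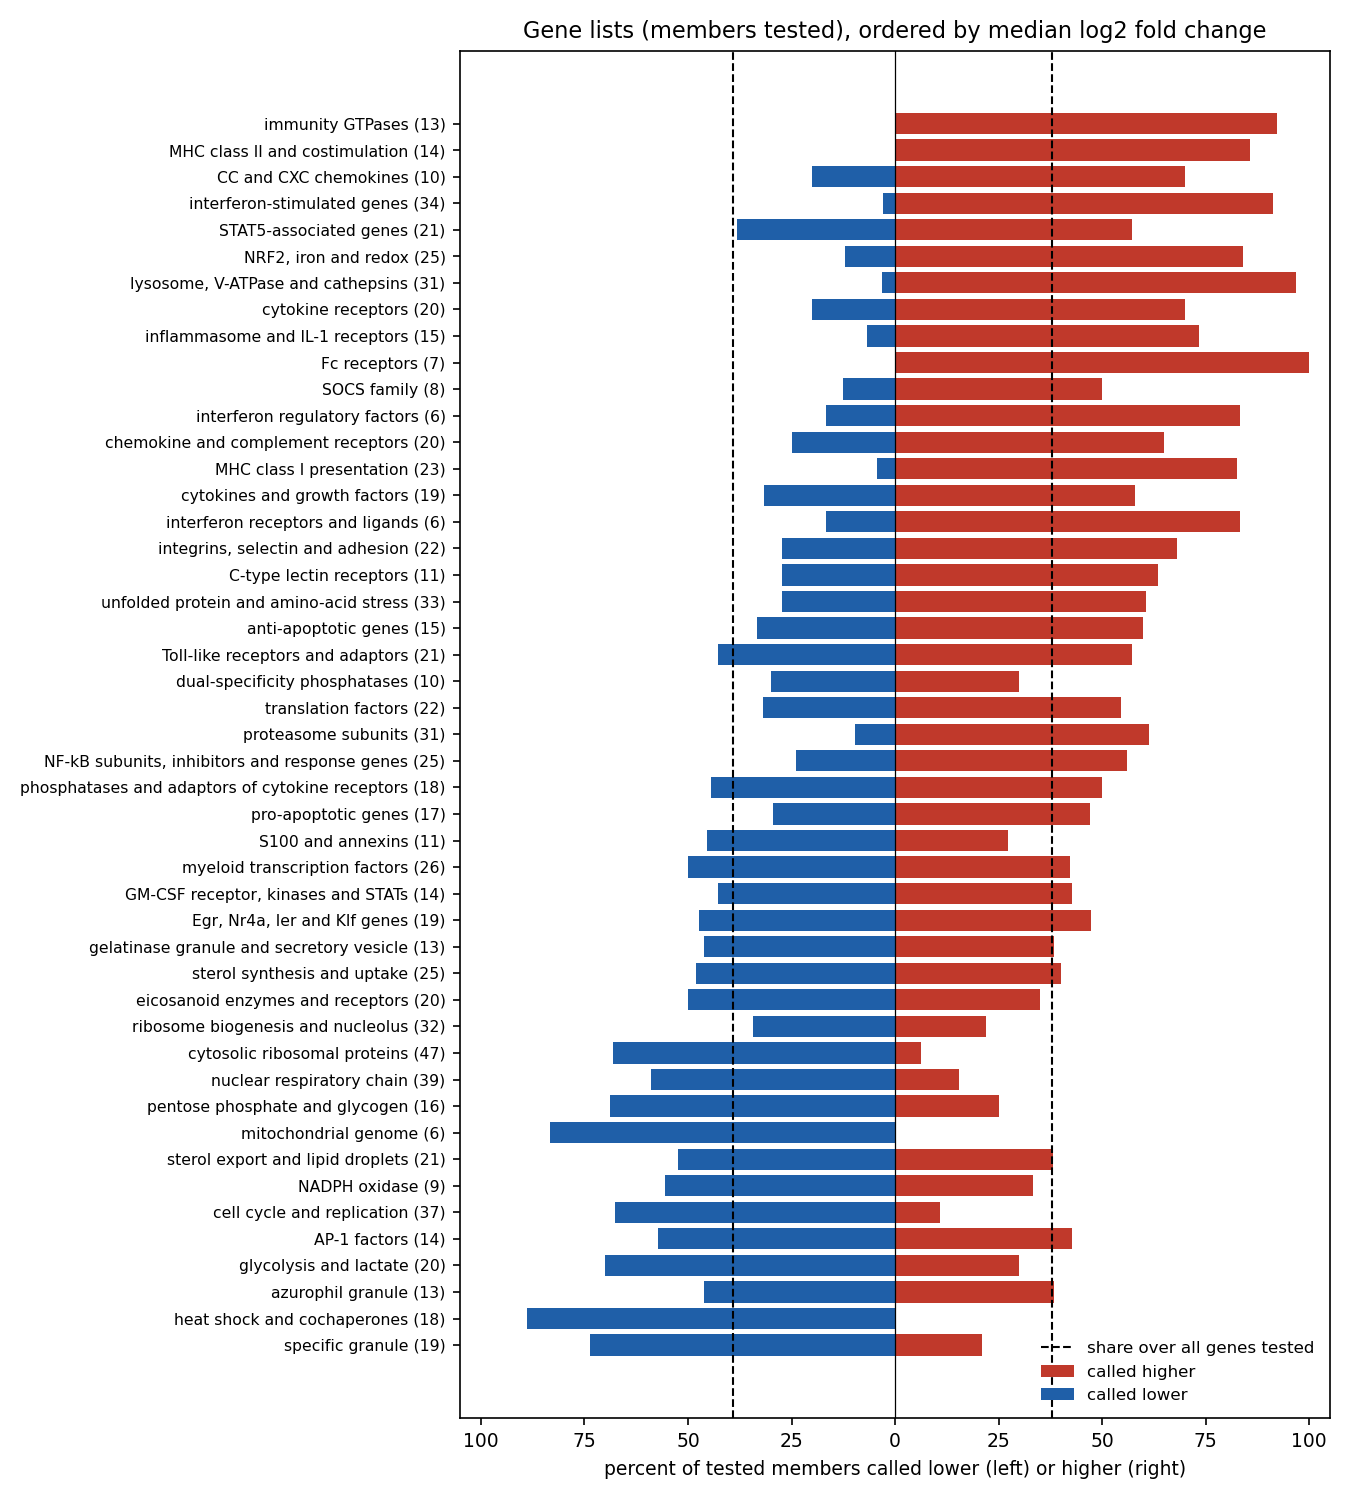
Percent of the tested members of each gene list, cell type markers left out, that rose (red, right) or fell (blue, left) in the libraries labelled CIS-/-, with the number of members tested in brackets, ordered by median log2 fold change. Dashed lines mark 37.9% higher and 39.1% lower over all genes; of the lists shown, immunity GTPases stand at the top with 12 of 13 higher, and specific granule genes at the bottom with 14 of 19 lower.

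Most specific granule genes fell, and the oxidase fell in part. Of 19 of 21 specific granule genes tested, 4 rose, 14 fell and 1 did not pass the test (median log2 fold change -1.07). Cybb, the catalytic chain of the NADPH oxidase that sits in these granules, was counted at 1514, 1469 and 1488 CPM unstimulated and 420.03, 434 and 411 CPM at 4 h (log2 fold change -1.82 ± 0.03, edgeR adjusted p = 1.20e-49), the adhesion molecule Ceacam1 at 294, 287 and 289.9 CPM unstimulated and 70.2, 69.5 and 75.1 CPM at 4 h, and Lrg1 at 729, 742 and 706 CPM unstimulated and 281, 279.7 and 259 CPM at 4 h. Cnn2 fell with a log2 fold change of -1.50 ± 0.03. Of the NADPH oxidase genes (9 of 9 tested), 3 rose, 5 fell and 1 did not pass the test (median log2 fold change -0.53); Ncf4 and Rac2, which act in the cytosolic part of the enzyme, fell by -1.10 and -0.72. Subunits of the membrane and of the cytosol were thus among those that fell. Gelatinase granule and secretory vesicle genes (13 of 17 tested) stood near the shares of all genes, 37.9% rising and 39.1% falling. Of them 5 rose, 6 fell and 2 did not pass the test (median log2 fold change -0.07). At least 2-fold, 3 rose and 5 fell. Slc11a1, the phagosomal metal transporter NRAMP1, was counted at 351, 367 and 357 CPM unstimulated and 937, 928 and 915 CPM at 4 h, and the sulfhydryl oxidase Qsox1 rose by 1.78 ± 0.04. Azurophil granule genes (13 of 16 tested) stood near these shares too, with a lower median: 5 rose, 6 fell and 2 did not pass the test (median log2 fold change -0.97). All 6 that fell did so at least 2-fold, and 3 rose at least 2-fold. Over all genes 18.2% fell and 18.1% rose at least 2-fold. Among those that rose, cathepsin C, Ctsc, which activates the granule serine proteases, was counted at 10.7, 11 and 9.28 CPM unstimulated and 108, 113 and 111 CPM at 4 h. Of S100 and annexin genes (11 of 12 tested), 3 rose, 5 fell and 3 did not pass the test (median log2 fold change 0.06); Anxa4 rose by 4.18 ± 0.10, Anxa3 by 0.73 ± 0.04, and Anxa1 and S100a11 fell by -0.99 and -0.48. The median of that list turned to -0.09 with library sizes alone, to -0.04 with the strict count filter and to -0.02 with the WT baseline. Of the eicosanoid enzymes and receptors (20 of 23 tested), 7 rose, 10 fell and 3 did not pass the test (median log2 fold change -0.13). That median was -0.23 to -0.25 with any 1 library left out, in fits that reran the count filter, so the members tested could differ. Lta4h, which makes the attractant leukotriene B4, was counted at 208, 221 and 214 CPM unstimulated and 73.6, 78.5 and 70.8 CPM at 4 h, while its receptors Ltb4r1 and Ltb4r2 rose by 1.08 ± 0.04 and 4.68 ± 0.16 on the log2 scale.

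Survival and killer genes are read against 37.9% of all genes rising and 39.1% falling. Of 15 of 15 anti-apoptotic genes tested, 9 rose, 5 fell and 1 did not pass the test (median log2 fold change 0.50). Besides Bcl2l1, the kinase Pim1 was counted at 625, 635 and 629 CPM unstimulated and 1494, 1464 and 1499.5 CPM at 4 h and Bcl2a1a, one of several near-identical copies of a BCL-2 relative, at 0.73, 0.25 and 0.9 CPM unstimulated and 19, 19.6 and 18.2 CPM at 4 h. The related kinase Pim3 fell, from 29.1, 29.1 and 30.6 CPM unstimulated and 3.39, 3.23 and 3.4 CPM at 4 h. Of the pro-apoptotic genes (17 of 22 tested), 8 rose, 5 fell and 4 did not pass the test (median log2 fold change 0.14), shares close to those of all genes. Bcl2l11, which codes for BIM, was counted at 38.5, 42.6 and 42.5 CPM unstimulated and 253, 246 and 244 CPM at 4 h, caspase-8, Casp8, at 17.6, 17.1 and 16.8 CPM unstimulated and 139, 145 and 139 CPM at 4 h, and the effector Bax at 5.48, 5.83 and 6.06 CPM unstimulated and 51.8, 55.1 and 53.8 CPM at 4 h. Bmf, another BH3-only killer, fell (-2.39 ± 0.08). The median of the pro-apoptotic list was -0.0021 with library sizes alone. Of the myeloid transcription factors (26 of 30 tested), 11 rose, 13 fell and 2 did not pass the test (median log2 fold change 0.03). The oxygen-regulated factor Hif1a was counted at 161, 162 and 166 CPM unstimulated and 589, 622 and 617 CPM at 4 h and Runx1 rose by 1.90 ± 0.05. Ets1 was counted at 146, 144 and 138 CPM unstimulated and 26.8, 27.1 and 27.7 CPM at 4 h and Ets2 at 551, 557 and 555 CPM unstimulated and 192, 198 and 201 CPM at 4 h, so these relatives fell together. The median of this list turned to -0.12 with library sizes alone, to -0.22 with the strict count filter and to -0.21 with the compared groups alone.

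Sugar and energy genes mostly fell. Of 20 of 21 glycolysis and lactate genes tested, 6 rose, 14 fell and 0 did not pass the test (median log2 fold change -0.62). Slc2a3, the high-affinity glucose transporter GLUT3, was counted at 1989, 2012 and 2024 CPM unstimulated and 537, 554 and 532 CPM at 4 h (log2 fold change -1.89 ± 0.03, edgeR adjusted p = 8.69e-52), while Slc2a1, the transporter GLUT1, was counted at 139, 146 and 139 CPM unstimulated and 366, 357 and 352 CPM at 4 h. The glucose transporters thus moved in opposite directions. Slc16a3, which exports lactate, and Gpi1, which isomerises glucose 6-phosphate, fell by -1.37 and -1.28. Of the pentose phosphate and glycogen genes (16 of 16 tested), 4 rose, 11 fell and 1 did not pass the test (median log2 fold change -0.29). Transketolase, Tkt, and glycogen synthase, Gys1, fell by -1.20 and -1.66, and Gaa, which breaks glycogen down in lysosomes, rose by 2.59 ± 0.10. Of the nuclear genes of the respiratory chain (39 of 39 tested), 6 rose, 23 fell and 10 did not pass the test (median log2 fold change -0.26); Atp5c1, of the ATP synthase, was counted at 66.8, 63.5 and 64.7 CPM unstimulated and 34, 34.2 and 33.2 CPM at 4 h. Of the protein-coding genes of the mitochondrial genome (6 of 13 tested), 0 rose, 5 fell and 1 did not pass the test (median log2 fold change -0.35), and mt-Co1 was counted at 286, 278 and 275 CPM unstimulated and 209, 238 and 207 CPM at 4 h. These falls were all under 2-fold except that of Ndufv1 (-1.05 ± 0.10). The share of counts in all genes of the mitochondrial genome, beyond the 13 listed, went the other way. It was 0.18 to 0.187% unstimulated and 0.217 to 0.231% at 4 h.

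Lipid genes as lists stood near the 37.9% of all genes that rose and the 39.1% that fell. Of 25 of 26 sterol synthesis and uptake genes tested, 10 rose, 12 fell and 3 did not pass the test (median log2 fold change -0.08). Fdps, which makes farnesyl diphosphate, was counted at 0.3, 0.57 and 0.39 CPM unstimulated and 10.8, 10.4 and 11.5 CPM at 4 h. Of the sterol export and lipid droplet genes (21 of 22 tested), 8 rose, 11 fell and 2 did not pass the test (median log2 fold change -0.51), a list whose median turned to 0.02 with the WT baseline. Abcg1, which exports cholesterol, was counted at 96.2, 97 and 100.9 CPM unstimulated and 961, 962 and 967 CPM at 4 h (log2 fold change 3.30 ± 0.04, edgeR adjusted p = 2.13e-59), and the droplet coat protein perilipin-2, Plin2, at 129.98, 124 and 125 CPM unstimulated and 983, 969.8 and 934 CPM at 4 h. Plin3 rose by 1.93 ± 0.04, whereas Dgat1, which makes triglyceride, fell from 848, 907 and 903 CPM unstimulated and 165, 169 and 164 CPM at 4 h.

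Lysosome genes rose almost throughout. Of 31 of 31 listed genes tested, 30 rose, 1 fell and 0 did not pass the test (median log2 fold change 1.38). The cholesterol transporter Npc1 was counted at 59.7, 63.2 and 60.8 CPM unstimulated and 447, 464 and 446 CPM at 4 h, the membrane protein Lamp1 at 137, 129 and 132 CPM unstimulated and 796, 802 and 755 CPM at 4 h and the proton pump subunit Atp6v0a1 at 241, 239.7 and 249.7 CPM unstimulated and 1035, 1047 and 1047 CPM at 4 h. With the WT baseline 28 rose and 1 fell. Genes of the NRF2, iron and redox list (25 of 26 tested) mostly rose as well: 21 rose, 3 fell and 1 did not pass the test (median log2 fold change 1.57). The part of NRF2 in this was not tested. Heme oxygenase-1, Hmox1, was counted at 79.2, 80.2 and 78.5 CPM unstimulated and 671, 670.3 and 656 CPM at 4 h (log2 fold change 3.07 ± 0.04, edgeR adjusted p = 1.80e-57), the glutathione synthesis subunit Gclm at 48.7, 52.2 and 46.7 CPM unstimulated and 465, 468 and 461 CPM at 4 h, and thioredoxin reductase, Txnrd1, at 77.7, 79.1 and 83 CPM unstimulated and 480.5, 473 and 478 CPM at 4 h. The ferritin light chain Ftl1, whose copies can share reads, rose by 1.96 ± 0.03, beside Fth1. Of the unfolded protein and amino-acid stress genes (33 of 34 tested), 20 rose, 9 fell and 4 did not pass the test (median log2 fold change 0.53). Xbp1, the secretory stress factor, was counted at 63.9, 69.9 and 70.1 CPM unstimulated and 1784, 1809 and 1767 CPM at 4 h (log2 fold change 4.72 ± 0.04, edgeR adjusted p = 7.06e-68). Slc7a5 and Slc3a2, the chains of a large neutral amino-acid transporter, both rose: Slc7a5 was counted at 3.89, 3.36 and 4.25 CPM unstimulated and 124, 125 and 114 CPM at 4 h, and Slc3a2 rose by 2.83 ± 0.04 on the log2 scale. Sesn2, a sensor of leucine, rose by 2.06 ± 0.03. Heat shock genes went the other way: of 18 of 20 tested, 0 rose, 16 fell and 2 did not pass the test (median log2 fold change -1.0). Hspa8 was counted at 342, 339 and 330.4 CPM unstimulated and 142, 148 and 143 CPM at 4 h and Hsp90ab1 at 373, 369 and 359 CPM unstimulated and 142, 143 and 137 CPM at 4 h, and the cochaperones Dnajb1 and Dnaja1 fell by -1.84 and -1.52. Unstimulated libraries labelled CIS-/- stood above WT by a median of 0.41 for this list, and with the WT baseline 1 member rose and 14 fell. Of the proteasome subunits (31 of 31 tested), 19 rose, 3 fell and 9 did not pass the test (median log2 fold change 0.20), but with library sizes alone 15 rose and 8 fell (median 0.05). Psmd11 and Psmd1 of the regulatory cap rose by 1.246 ± 0.06 and 1.09 ± 0.06.

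Growth genes did not rise together. Of 32 of 34 ribosome biogenesis genes tested, 7 rose, 11 fell and 14 did not pass the test (median log2 fold change -0.17), a median that was -0.0080 without unstimulated replicate 2 and turned to 0.10 with the WT baseline. Heatr1, which acts in processing of ribosomal RNA, was counted at 4.99, 4.44 and 3.55 CPM unstimulated and 127, 136 and 137 CPM at 4 h, and nucleolin, Ncl, rose by 0.71 ± 0.04, while Polr1a, the largest subunit of RNA polymerase I, was counted at 210.4, 208 and 210.02 CPM unstimulated and 66.4, 65.8 and 70.8 CPM at 4 h. Of the cytosolic ribosomal protein genes (47 of 48 tested), 3 rose, 32 fell and 12 did not pass the test (median log2 fold change -0.21); Rpl7a was counted at 86.5, 87.4 and 82.5 CPM unstimulated and 63.2, 63.4 and 55.5 CPM at 4 h, and many pseudogene copies make these counts uncertain. With the WT baseline 9 of them rose and 23 fell. Of the translation factors (22 of 22 tested), 12 rose, 7 fell and 3 did not pass the test (median log2 fold change 0.33). Eif5a, which eases peptide bond formation, was counted at 187, 191 and 189 CPM unstimulated and 722, 734 and 699.8 CPM at 4 h, and the poly(A)-binding protein Pabpc1 rose by 1.01 ± 0.03. Of the cell cycle and replication genes (37 of 37 tested), 4 rose, 25 fell and 8 did not pass the test (median log2 fold change -0.56). The helicase subunit Mcm4 was counted at 20.5, 21.6 and 21.1 CPM unstimulated and 4.78, 4.2 and 6.13 CPM at 4 h and E2f2 at 331, 323 and 319.9 CPM unstimulated and 134, 127 and 130.01 CPM at 4 h, and Cdk6 was an exception, at 10.6, 10.5 and 10.8 CPM unstimulated and 70.7, 77.5 and 84.2 CPM at 4 h.

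Markers of other blood cells were low beside the neutrophil markers, and some moved with time. The summed level of 14 monocyte and macrophage markers was 752.7 to 787.2 CPM unstimulated and 752.1 to 772.8 CPM at 4 h, with Csf1r falling from 263, 254 and 249 CPM unstimulated and 85, 83.1 and 81.4 CPM at 4 h and Adgre1, the macrophage marker F4/80, rising by 1.24 ± 0.04. The 10 dendritic cell markers summed to 48.4 to 51.8 CPM unstimulated and 120.8 to 132.5 CPM at 4 h, most of it Itgax, which was counted at 47.5, 47.6 and 44.6 CPM unstimulated and 113, 109.5 and 103 CPM at 4 h. The 12 eosinophil, basophil and mast cell markers summed to 72.5 to 74.1 CPM unstimulated and 201.9 to 204.5 CPM at 4 h, and Kit, the stem cell factor receptor of mast cells and progenitors, was counted at 18.3, 17.2 and 16.1 CPM unstimulated and 164, 160.02 and 163 CPM at 4 h. Ear2 and Siglecf of the same list fell (-4.05 ± 0.18 and -0.98 ± 0.09) and Ccr3 rose (1.05 ± 0.12). B and plasma cell markers summed to 198.2 to 205.8 CPM and then 154.6 to 164.5 CPM, nearly all of it Ighm. T and NK cell markers summed to 8.88 to 9.39 CPM and then 2.81 to 3.74 CPM, with Cd3d falling from 6.45, 6.47 and 6.25 CPM unstimulated and 2.43, 1.84 and 1.53 CPM at 4 h. Platelet markers summed to under 3.3 CPM in both groups. The 9 matched erythroid markers summed to 122.7 to 126.4 CPM unstimulated and 80.5 to 115.7 CPM at 4 h. In WT libraries they summed to 44.7 to 47 CPM unstimulated and 30.9 to 36.3 CPM at 4 h. Over the 6 tested, the median log2 difference from WT was 1.45 unstimulated and 1.59 at 4 h. Of the defining markers, Mrc1, Xcr1, Ncr1, Gzmb and Gp6 had no count in any unstimulated library, and Cx3cr1, C1qa, C1qb, Vpreb3, Cd4, Ncr1, Gzmb, Klf1, Gp9 and Treml1 had none at 4 h. Under 1 CPM on average at 4 h were 9 of the monocyte and macrophage, 7 of the dendritic cell, 11 of 12 B and plasma cell and 14 of 15 T and NK cell markers. Their part in the results above was not tested.

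Most changes were shared with WT neutrophils over the same 4 h. In WT 8826 genes changed (76.3%), of which 4404 rose (38.1% of all genes) and 4422 fell (38.2%). Of all genes, 3904 rose in both genotypes, 3931 fell in both and 97 went in opposite directions. The 2 comparisons use different libraries but came from 1 fit. The difference between their changes, the genotype-by-time interaction, passed the test for 1821 genes (15.7%), of which 615 had a higher change in the libraries labelled CIS-/- and 1206 a lower one. Few of these were large: differences of at least 2-fold were found in 167 genes (1.44%), 35 higher (0.303%) and 132 lower (1.14%). Among the 1821, 361 genes rose in both with the larger rise in the libraries labelled CIS-/-, 406 rose in both with the smaller, 499 fell in both with the larger fall and 102 with the smaller. Another 204 were called only in the libraries labelled CIS-/-, 149 only in WT, 97 in opposite directions and 3 in neither. In 1033 of the 1821 (56.7%), and in 122 of the 167 (73.1%) that reached 2-fold, the genotypes lay further apart unstimulated than at 4 h. The interaction is the genotype difference at 4 h minus that unstimulated, so genes called on it are sorted by these same values. The share over all genes was not computed. All of these directions use the unstimulated libraries labelled CIS-/-, in which Cish stood above WT.

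**Figure D4:**
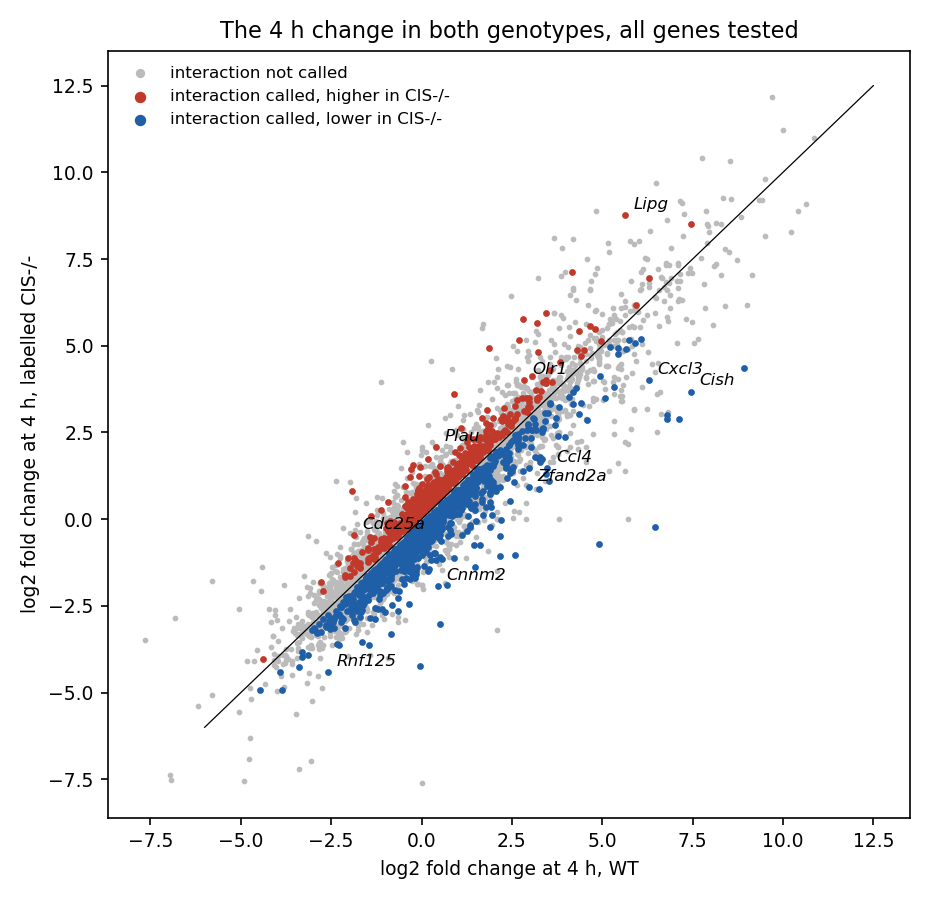
Log2 fold change at 4 h in WT (x axis) and in the libraries labelled CIS-/- (y axis) for 11569 genes, with the line of equal change. Coloured points passed the interaction test, 615 above the line (red) and 1206 below it (blue); Cish lies furthest below the line among the named genes, with an interaction of -3.78.

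Genes with a higher change in the libraries labelled CIS-/- included enzymes and receptors of the cell surface. Lipg stood at 0.85, 0.38 and 1.1 CPM unstimulated in the libraries labelled CIS-/- against 6.06 CPM on average in WT, and at 4 h the means were 341 and 296 CPM; the interaction was 3.15 ± 0.20 (edgeR adjusted p = 1.41e-19). Plau, the urokinase activator of plasminogen, was counted at 15.4, 12.9 and 15.4 CPM unstimulated and 62.7, 59.9 and 62.4 CPM at 4 h, and WT at 29.1, 27.1 and 27.7 CPM unstimulated and 34.1, 38.9 and 38.1 CPM at 4 h. Thada was counted at 7.97, 8.75 and 8.25 CPM unstimulated and 18.6, 20.1 and 18.9 CPM at 4 h, and WT at 6.73, 5.78 and 6.82 CPM unstimulated and 7.62, 7.68 and 7.23 CPM at 4 h. Olr1, a receptor of oxidised low-density lipoprotein, was counted at 5.96, 7.17 and 6.7 CPM unstimulated and 104, 107 and 106 CPM at 4 h, and WT at 9.6, 9.88 and 8.97 CPM unstimulated and 63.8, 67.1 and 69.8 CPM at 4 h. At 4 h the libraries labelled CIS-/- stood above WT in Plau, Thada and Olr1 by 0.73, 1.36 and 0.67 on the log2 scale. The interaction that picked these genes includes this difference. The phosphatase Cdc25a fell less in these libraries than in WT, from 11.6, 11.9 and 12.3 CPM unstimulated and 8.17, 9.27 and 8.08 CPM at 4 h against 13.9, 14.5 and 14 CPM unstimulated and 3.66, 3.67 and 4.34 CPM at 4 h. The nucleotide receptors P2ry6 and P2ry12, Tnfrsf13b, the nucleoside phosphorylase Pnp2, whose close copy Pnp could share its reads, and the endoplasmic reticulum chaperone Pdia4 completed the 10, with interactions between 0.99 and 1.07 on the log2 scale. The interaction of Pnp2 missed the threshold without unstimulated replicate 1 labelled CIS-/- (0.83, edgeR adjusted p = 0.0778), and that of P2ry6 without unstimulated WT replicate 2 (0.88, edgeR adjusted p = 0.0623).

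Genes with a lower change were led by Cish and by genes already high in the unstimulated libraries labelled CIS-/-. The interaction of Cish was -3.78 ± 0.08 (edgeR adjusted p = 3.07e-43). Cnnm2, a magnesium transport protein, was counted at 14.3, 14 and 14 CPM unstimulated and 3.39, 3.57 and 4.17 CPM at 4 h, and WT at 2.57, 3.09 and 2.63 CPM unstimulated and 3.73, 2.99 and 4.66 CPM at 4 h. Cyth1, an exchange factor for ARF GTPases, was counted at 245, 235 and 239 CPM unstimulated and 108, 107 and 111 CPM at 4 h, and WT at 87.4, 88.4 and 85.2 CPM unstimulated and 131, 123 and 129.6 CPM at 4 h. Both fell in the libraries labelled CIS-/- from a higher start, and at 4 h they differed from WT by -0.02 and -0.23 on the log2 scale. Cxcl3, Ccl4, the stress protein Zfand2a and the metal-binding Mt1 rose in both genotypes but less in these libraries, with interactions of -2.28 ± 0.27, -2.003 ± 0.10, -2.04 ± 0.07 and -1.72 ± 0.17. Zfand2a was counted at 77, 79.1 and 85.6 CPM unstimulated and 146, 154 and 156 CPM at 4 h, and WT at 22.6, 23.7 and 22.9 CPM unstimulated and 177, 184 and 178 CPM at 4 h. Rnf125 and Rrp1b fell further, and Jmy rose less (-1.82 ± 0.27, -1.66 ± 0.25 and -1.63 ± 0.28). Apart from Cish, the 9 genes stood higher unstimulated in the libraries labelled CIS-/- than in WT by 1.03 to 2.39 on the log2 scale, and at 4 h they differed by -0.60 to 0.13. The interaction that picked these genes is built from both differences.

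**Figure D5:**
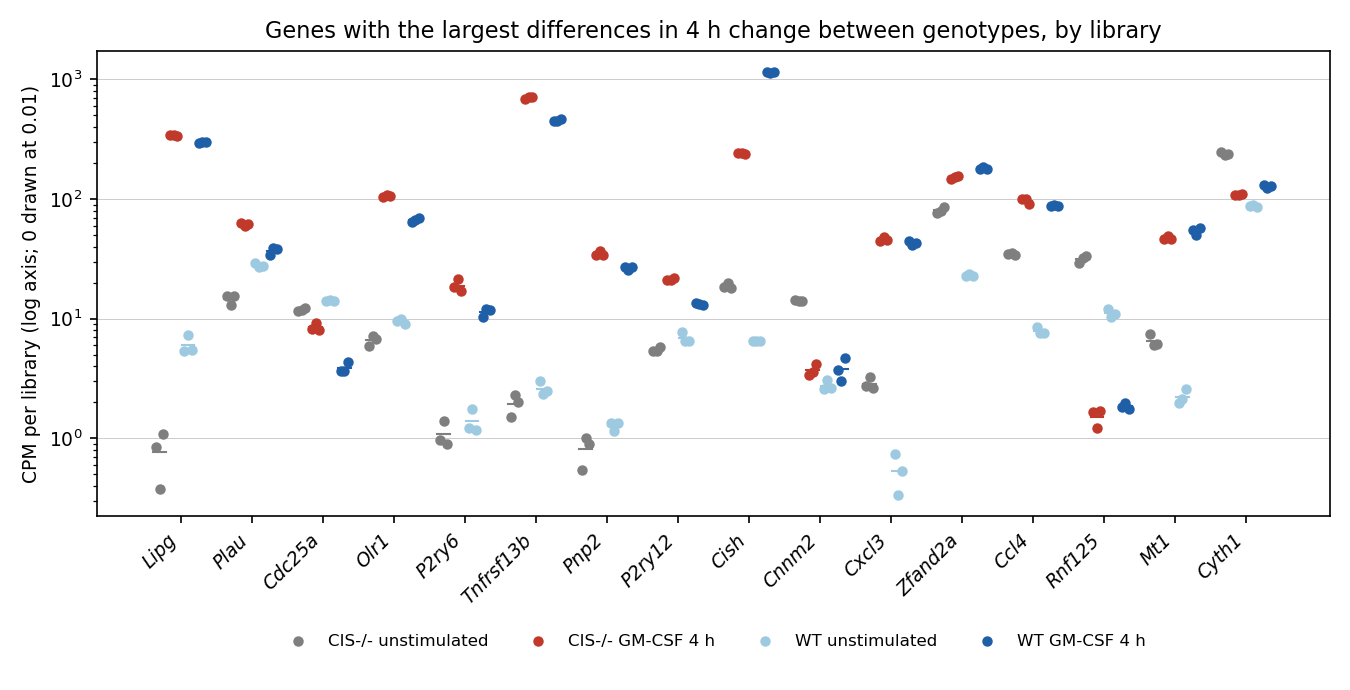
CPM per library (log axis) of the 8 genes with the largest higher and the 8 with the largest lower 4 h change in the libraries labelled CIS-/-, for 4 groups of 3 libraries, with bars for group means. For Cnnm2, Cxcl3, Ccl4 and Cyth1 the grey and pale blue unstimulated points lie apart while the red and dark blue 4 h points lie close.

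By list, the interaction was one-sided in a few groups, read against 5.32% of all genes with a higher and 10.4% with a lower change. Of 34 interferon-stimulated genes, 17 had a lower change in the libraries labelled CIS-/- and none a higher one. Their median log2 difference from WT was -0.11 unstimulated and -0.41 at 4 h, so they lay below WT mainly after culture. The 4 members named above were not among the 17: the interactions of Oasl2, Zbp1, Parp14 and Ifi35 lay between -0.06 and 0.08. Lower changes also held for 10 of 14 AP-1 factors, 12 of 19 Egr, Nr4a, Ier and Klf genes, 9 of 18 heat shock genes and 11 of 20 glycolysis genes, and higher ones for 1, 0, 0 and 2. In these 4 groups the median difference from WT was 0.48, 0.44, 0.41 and 0.08 unstimulated and 0.14, 0.04, -0.04 and -0.08 at 4 h. Jak2 rose more than in WT (0.40 ± 0.05), as did Il4ra (0.32 ± 0.05) and Nfkb1 (0.43 ± 0.05), while Socs1, Cd274 and Pim1 rose less (-0.49 ± 0.09, -0.81 ± 0.08 and -0.63 ± 0.04). These 3 stood above WT unstimulated by 0.76, 0.71 and 0.73 on the log2 scale and differed from WT by 0.27, -0.11 and 0.10 at 4 h.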

How the data were processed

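Per the submitters' processing notes, the authors trimmed reads with Trimmomatic, aligned them with STAR to mm10 and counted them per gene with featureCounts; no version, annotation or strand setting of the counting is named there. The kit marks strand, per the labels' protocols, but without that setting it is unknown if counting used it, so reads of overlapping genes on opposite strands may not have been told apart. The deposited values are raw counts per Ensembl gene. Of 53379 gene IDs, 53274 were matched to GENCODE mouse release names on GRCm38, and the others held 0.0238% of the counts. The treatment protocol gives 42h where titles give 24h, a time not compared here.

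Genes were filtered by group with filterByExpr and fitted in R 4.3.3 with edgeR 4.0.16 (TMM, robust quasi-likelihood, 6 groups, 18 libraries); 11569 genes held 99.928% of the counts, and tests were two-sided. SE is the absolute log2 fold change divided by the root of F. Alternatives were RLE factors, library sizes only, DESeq2 1.42.0, limma-voom (limma 3.58.1), no filter, a filter of 50 counts in 3 libraries, the compared groups only, a non-robust prior, a replicate block, each library left out, and a 2-fold threshold. The filter was rerun when libraries or groups were left out, so the members of a list that were tested can then differ from the main fit. The strict filter can change them too. The pipeline was tested on simulated counts.

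The 55 gene lists held 1058 genes, of which 1054 matched and 907 were tested; the comparison and the lists were chosen with earlier results of these data known. Named were Cish, the 12 largest rises and falls with at least 10 CPM in a group and groups that do not overlap, the 8 largest gains and losses of CPM, up to 4 members per list, by smallest adjusted p, with a mean of 1 CPM or more, and the 10 largest interactions a direction; clones and pseudogenes were left out, and some genes that this rule names are not reported here. Setting members with no count in a group at their bound moved no list median by over 0.1. Promoters are from RefSeq, build GRCm38.p6.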

Additional observations from a re-analysis of the deposited data

Results flagged for a closer look

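The change after 4 h differed between the libraries labelled CIS-/- and WT, by an edgeR test of the interaction, in 1821 genes. In the log2 interaction (the change in libraries labelled CIS-/- minus that in WT) the highest values among genes that passed the test and the naming rule were those of Lipg (3.15), Plau (1.67), Cdc25a (1.39), Olr1 (1.18), P2ry6 (1.07), Tnfrsf13b (1.06), Pnp2 (1.05), P2ry12 (1.01), Thada (1.0) and Pdia4 (0.99). The lowest among them were those of Cish (-3.78), Cnnm2 (-2.38), Cxcl3 (-2.28), Zfand2a (-2.04), Ccl4 (-2.0), Rnf125 (-1.82), Mt1 (-1.72), Cyth1 (-1.70), Rrp1b (-1.66) and Jmy (-1.63). Groups of 3 libraries were not searched for outlying libraries.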

How the results depend on the processing

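With a threshold of 2-fold the calls were 4202 (2095 higher, 2107 lower) in the libraries labelled CIS-/-, 4004 (2122 higher, 1882 lower) in WT and 167 (35 higher, 132 lower) for the interaction. With the compared groups fitted alone the interaction gave 950 higher genes against 615; no other count over all genes moved by over 1.5 times under the other settings. Within lists, library sizes alone gave 8 proteasome subunits lower (3), 2 respiratory chain genes higher (6), 1 NADPH oxidase gene higher (3), and 2 lower (1) in the SOCS, MHC class I, inflammasome and interferon-stimulated lists, with the main count in brackets; the compared groups alone gave 6 cytosolic ribosomal proteins (3) and 5 S100 and annexin genes (3) higher, and no interferon-stimulated gene was lower without 4 h replicate 1. Leaving out 1 library at a time gave 8552 to 8750 calls in the libraries labelled CIS-/- (4198 to 4332 higher, 4354 to 4436 lower), 8499 to 8628 in WT (4268 to 4323 higher, 4207 to 4360 lower) and 1584 to 1698 for the interaction (501 to 591 higher, 1032 to 1107 lower). Same-numbered libraries did not deviate together (correlations of -0.043 to 0.029), so no pairing was detected. If the libraries of a group are technical replicates, these correlations could not show a pairing. With a replicate block there were 8923 calls in the libraries labelled CIS-/-, 8833 in WT and 1912 for the interaction.

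The unstimulated WT baseline was added after seeing the data. It gave 9013 calls: 8092 genes were called in the same direction with both baselines, 62 in opposite directions, 753 with the CIS-/- baseline alone and 859 with the WT baseline alone. Of 229 named genes 225 kept direction and call, and Hba-a1, Hba-a2, Alas2 and Hbb-bt reversed, to log2 fold changes of 1.16, 1.14, 0.88 and 0.81. With libraries left out one at a time, the falls of Hba-a1, Hba-a2 or Alas2 missed the threshold in 1 or more fits, and Hba-a1 and Hba-a2 also did with DESeq2 (adjusted p = 0.089 and 0.0578) and Hba-a1 with no filter (edgeR adjusted p = 0.0515). The cause was not tested. Depth limits genes at 0 or a few counts unstimulated, whose folds are bounds or wide ratios.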

Other observations

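The lincRNA and antisense genes leaned further to rises than coding ones. Of 324 tested lincRNA genes, 163 rose (50.3%) and 72 fell (22.2%), with a median log2 fold change of 0.78, and of 259 antisense genes 118 rose (45.6%) and 61 fell (23.6%), with a median of 0.43. Of 10185 protein-coding genes 3824 rose (37.5%) and 4165 fell (40.9%), with a median of -0.06. Of 239 pseudogenes 73 rose and 64 fell, with a median of 0. In the biotype TEC 33.3% of 255 genes rose and 31.8% fell (median 0.04). Of 150 processed transcripts 38.7% rose and 28.7% fell (median 0.16). The biotypes are those of GENCODE; antisense genes share reads with their partners where strand was not used in counting, and spliced and unspliced RNA were not told apart here.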
